A study of Homo sapiens with 60 samples.

Results

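Aconiti Lateralis Radix Preparata is processed aconite root, a drug of Korean and Chinese herbal medicine, and its lowest dose in this series was 14.4 µg/mL. The 3 libraries at this dose were set against 3 libraries of the DMSO vehicle, 6 of the 60 libraries of the series, and all 17268 genes that passed the low-count filter were described. The cells were A549, an established human lung adenocarcinoma line, kept for 24 h with vehicle or with a hot-water extract. Higher Aconiti doses of 72 and 360 µg/mL, and the low dose (20 µg/mL) of the extracts Bupleuri, Citri, Cimicifugae, Yijung and Banhasasim, with 3 libraries each, served to place the result. The series records what extracts do to the expressed genes of a cell line, and this comparison asks which genes respond at the bottom of the Aconiti dose scale. Vehicle held 0.1% DMSO by the sample labels and 2% by the design text, and the DMSO content of the extract samples is not given in the sources used here. Sample numbers open with a different prefix in vehicle than in Aconiti and Bupleuri, so in any contrast against vehicle the extract and such a set cannot be told apart. Nothing in the labels states that replicates came from separate cultures, and p-values therefore reflect only how far libraries spread within groups, which may be technical. The main edgeR fit estimated that spread from 57 libraries in 19 groups of 3, so it is not the spread of the 6 libraries alone.

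Aconite roots contain diterpenoid alkaloids, the best known of which, aconitine, acts on voltage-gated sodium channels of nerve and heart, and processing of the root converts these alkaloids to less toxic forms. A pair of gene programmes recurs in the results. The integrated stress response is a shared pathway in which phosphorylation of the initiation factor eIF2α slows protein synthesis while the transcription factor ATF4 is translated, and ATF4 then induces genes of amino acid synthesis and transport and feedback regulators such as CHOP (DDIT3), TRIB3 and CHAC1. Mitochondrial dysfunction, amino acid shortage and endoplasmic reticulum stress are all known to feed into it. The aryl hydrocarbon receptor is a transcription factor switched on by many plant compounds and aromatic pollutants, and CYP1A1, CYP1B1 and TIPARP are among its best-known target genes. The mitochondrial genome encodes 2 ribosomal RNAs and 13 subunits of the respiratory chain, which are transcribed together on long precursors and cut apart afterwards.

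In all, 12 genes differed between Aconiti low and vehicle, and all 12 were higher with the extract. They were STC2, MT-RNR1, CYP1B1, CYP1A1, CBS, ADM2, ASNS, IRF2BPL, SESN2, TMEM156, PSAT1 and DDIT4, and they make up 0.0695% of the genes tested (edgeR's quasi-likelihood test, Benjamini-Hochberg adjusted p under 0.05). No gene passed as lower in this shared edgeR fit, while the edgeR fits with the length balance as covariate (the balance of long against short transcripts in each library) and without Aconiti low replicate 1 each called 1 gene lower. At an unadjusted p under 0.05 there were 515 higher genes (2.98%) and 221 lower ones (1.28%), and DESeq2 on the 6 libraries alone called 23 genes higher and 2 lower. The DESeq2 calls held 7 of the 12. On data simulated for this comparison DESeq2 on the 6 libraries made 35 false calls, against 11 in the shared fit. That simulation changed 100 genes 1.5-fold and 100 genes 2-fold, and drew its noise with the spread of the shared fit. Its counts therefore do not tell how many of the real calls, by either method, are false. Most of the changes found against vehicle were small. Of the 12, the ribosomal RNA MT-RNR1 and CYP1A1 differed 2-fold or more, and the smallest called log2 fold was 0.27. The median log2 fold over all genes was 0.01, and 53% of genes had a fold above 0.

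**Figure D1:**
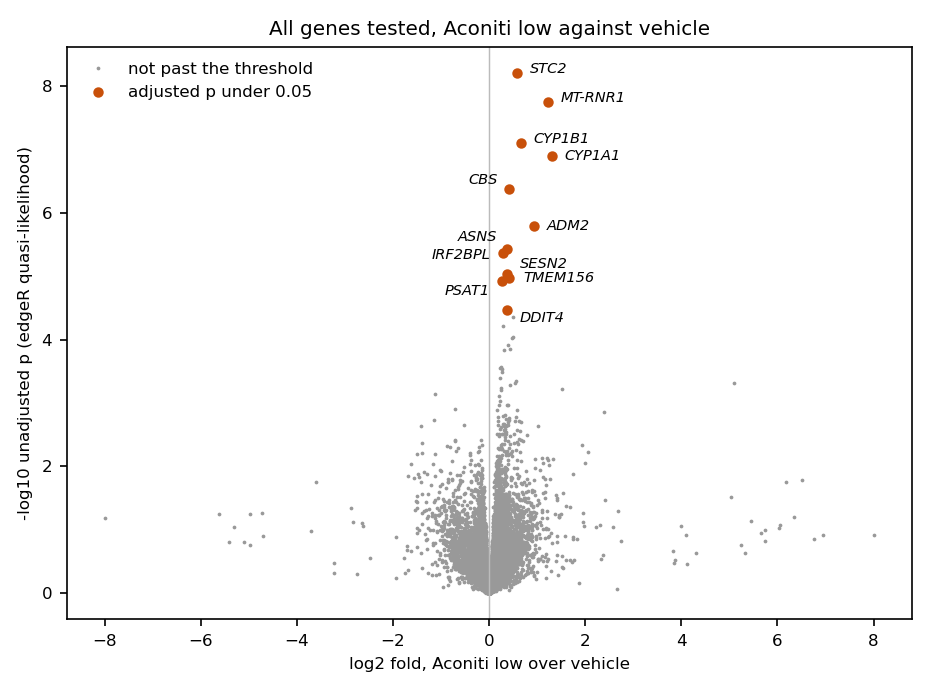
Each point is 1 of 17268 genes, with its log2 fold of Aconiti low over vehicle on the horizontal axis and the −log10 of its unadjusted p on the vertical axis. The 12 genes past the threshold, in orange with their symbols, all lie on the right, and the grey points far out on both sides, with folds of up to 8 on the log2 scale, have small −log10 p.

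The promoters of ASNS and CYP1A1 are shown because each of these genes stands for one of the programmes above. Each window also holds letters that match the element marked for its programme. Whether the match in CYP1A1 is a site that the receptor uses was not tested. Each window covers the 250 bases before the gene's start in RefSeq (GRCh38.p14), 5′ to 3′ on the gene's strand, and RefSeq starts can lie inside longer gene models. Capitals mark TGATGNAA, the element that ATF4 binds together with C/EBP proteins, and GCGTG, the core that the aryl hydrocarbon receptor binds, or their reverse complements. The ASNS window is chr7:97872409-97872658 and the CYP1A1 window is chr15:74725529-74725778, both on the minus strand.
ASNS: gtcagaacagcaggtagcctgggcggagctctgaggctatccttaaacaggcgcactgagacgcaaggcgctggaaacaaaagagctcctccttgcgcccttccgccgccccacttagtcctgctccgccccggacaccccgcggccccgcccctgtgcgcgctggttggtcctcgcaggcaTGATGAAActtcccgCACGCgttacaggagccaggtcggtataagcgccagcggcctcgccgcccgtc
CYP1A1: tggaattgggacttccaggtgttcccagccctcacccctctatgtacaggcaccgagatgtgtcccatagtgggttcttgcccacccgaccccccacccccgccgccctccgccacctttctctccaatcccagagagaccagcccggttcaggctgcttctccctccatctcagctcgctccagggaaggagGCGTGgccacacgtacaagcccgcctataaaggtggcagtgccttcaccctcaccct
In ASNS the sequence TGATGAAA begins 68 bases before the start, and in CYP1A1 the core GCGTG begins 57 bases before it. The RefSeq table held 10 of the 12 called genes, with 13 windows in all. TGATGNAA was found in 1 of these windows, that of ASNS, against 3.14% of all 35116 windows of the same length. GCGTG was found in 7 of the 13, against 32.2% of all windows, and the genes concerned were STC2, CYP1A1, CBS, ADM2, ASNS and DDIT4. A match says only that these letters are present.

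Genes of amino acid synthesis and the stress response supplied much of the list. The ATF4 and CHOP stress list held 26 genes, of which 25 were tested. Of these, 5 rose (STC2, SESN2, ASNS, PSAT1 and DDIT4) and none fell, where 0.0695% of all genes rose. The log2 fold was above 0 in 24 of the 25, against 53% of all genes, and its median was 0.24, against 0.01 over all genes. At an unadjusted p under 0.05 17 were higher, against 2.98% of all genes, and in 19 all 3 Aconiti libraries lay above all 3 vehicle libraries, against 7.99% of all genes (6.15% of all genes lay wholly below). The list and the programme were chosen with earlier results of these data known, so these counts are a description. The number of calls depended on the fit. It was 1 on only the 6 libraries, 1 with no low-count filter, 7 with DESeq2 and 9 with the length balance as covariate. Without vehicle replicate 1, vehicle replicate 3 or Aconiti low replicate 3 a single member rose, without Aconiti low replicate 1 there were 2 and without vehicle or Aconiti low replicate 2 there were 3, while the median stayed between 0.24 and 0.27 whichever of the 6 libraries was left out.

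STC2 encodes stanniocalcin 2, a secreted glycoprotein known to be induced by ATF4 (chr5:173314713-173329503, minus strand). Its level was 28.2, 28.9 and 28.4 CPM (a gene's counts relative to the scaled library total) in the vehicle libraries and 45.1, 42.3 and 41.3 CPM in the Aconiti low libraries. The groups were far apart, with little spread inside either. The log2 fold was 0.59 ± 0.08 (standard error), and its adjusted p of 0.000107 was the smallest of all genes.

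ASNS encodes asparagine synthetase (chr7:97852118-97872542, minus strand). It stood at 118, 130 and 121 CPM in vehicle and at 153, 155 and 172 CPM in Aconiti low, a log2 fold of 0.37 ± 0.07 (adjusted p = 0.00911). PSAT1 encodes phosphoserine aminotransferase, an enzyme of serine synthesis (chr9:78297143-78330093, plus strand), and was at 354, 351 and 343 CPM in vehicle and 417, 406 and 438 CPM in Aconiti low (log2 fold 0.27 ± 0.05, adjusted p = 0.0185). In both genes the libraries of the groups did not overlap, and the third Aconiti library was the highest. With 1 library left out, ASNS kept its call in 3 of 6 fits, and its adjusted p was 0.0856 to 0.309 without vehicle 1, vehicle 3 or Aconiti low 3. PSAT1 kept its call in 1, without Aconiti low 2, and had 0.0683 to 0.368 in the others.

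SESN2 and DDIT4 encode stress-induced inhibitors of the growth kinase mTORC1. SESN2 (chr1:28259527-28282491, plus strand) was at 13.3, 13.6 and 11.6 CPM in vehicle and at 16.3, 16.9 and 16.6 CPM in Aconiti low, a log2 fold of 0.37 ± 0.07 (adjusted p = 0.0179). DDIT4 (chr10:72273920-72276036, plus strand) was at 172, 177 and 178 CPM in vehicle and at 215, 223 and 241 CPM in Aconiti low, a log2 fold of 0.37 ± 0.08 (adjusted p = 0.0488). The libraries were separated in both, but the calls were fragile. DDIT4 lost its call whichever of the 6 libraries was left out (adjusted p 0.0683 to 0.783), and SESN2 kept its call in 1 of these 6 fits, without vehicle 2 (0.0633 to 0.287 in the others). SESN2 also stands on the p53 list and was its 1 member that rose, of 24 tested.

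CBS and ADM2 were not on the list. CBS encodes cystathionine beta-synthase, which opens the conversion of homocysteine to cysteine (chr21:43053191-43076943, minus strand). It was at 25.1, 25.1 and 24.0 CPM in vehicle and at 33.0, 30.8 and 34.7 CPM in Aconiti low (log2 fold 0.41 ± 0.07, adjusted p = 0.00143). ADM2, which encodes the peptide hormone adrenomedullin 2 (chr22:50481556-50486440, plus strand), was at 1.22, 1.55 and 1.57 CPM in vehicle and at 2.47, 2.69 and 3.15 CPM in Aconiti low. Its log2 fold was 0.94 ± 0.17 (adjusted p = 0.00463), from a low level at which each library holds few reads. All Aconiti libraries were higher than all vehicle libraries in both genes. Without Aconiti low replicate 3 the adjusted p was 0.0553 for CBS and 0.098 for ADM2, and without vehicle replicate 1 it was 0.145 for ADM2.

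IRF2BPL and TMEM156 were the remaining protein-coding calls outside the programmes. IRF2BPL, which encodes a nuclear protein related to an interferon regulatory factor 2 binding protein (chr14:77024543-77028699, minus strand), was at 32.6, 32.0 and 33.9 CPM in vehicle and at 40.9, 40.8 and 39.1 CPM in Aconiti low. TMEM156, which encodes a transmembrane protein (chr4:38966744-39032922, minus strand), was at 10.1, 10.2 and 10.2 CPM in vehicle and at 13.8, 12.7 and 14.1 CPM in Aconiti low. The groups did not overlap in either gene. The log2 folds were 0.29 ± 0.06 (adjusted p = 0.00911) and 0.42 ± 0.08 (adjusted p = 0.0182). With 1 library left out, IRF2BPL passed in 2 of 6 fits (adjusted p 0.0683 to 0.129 in the others, which lacked vehicle 1 or 2 or Aconiti low 1 or 2) and TMEM156 in 1 (0.0944 to 0.316 in the others, which lacked any vehicle library or Aconiti low 1 or 3).

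Other genes of the stress list leaned the same way without passing. The messenger of ATF4 itself was at 253.9 CPM in vehicle and 299.4 CPM in Aconiti low (log2 fold 0.24 ± 0.09, adjusted p = 0.915), and that of DDIT3 (CHOP) at 9.54 and 11.9 CPM (0.32 ± 0.16, adjusted p = 0.915). TRIB3, a pseudokinase that restrains the response, was at 62.6, 66.7 and 70.4 CPM in vehicle and at 90.3, 84.1 and 97.4 CPM in Aconiti low (0.45 ± 0.11, adjusted p = 0.134). CHAC1, which degrades glutathione, had 6.67 and 9.79 CPM (0.56 ± 0.15, adjusted p = 0.31), and PHGDH, the enzyme at the head of serine synthesis, had 72.8 and 98.9 CPM (0.44 ± 0.12, adjusted p = 0.319). In these 5 genes the libraries of the groups did not overlap, as in 19 of the 25 list genes tested and 7.99% of all genes. The 5 were picked with earlier results known, and TRIB3 came in by a rule that requires no overlap. SLC7A11, the cystine transporter, was the 1 member with a fold below 0 (529.3 and 489.7 CPM, −0.11 ± 0.15, adjusted p = 0.916).

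**Figure D2:**
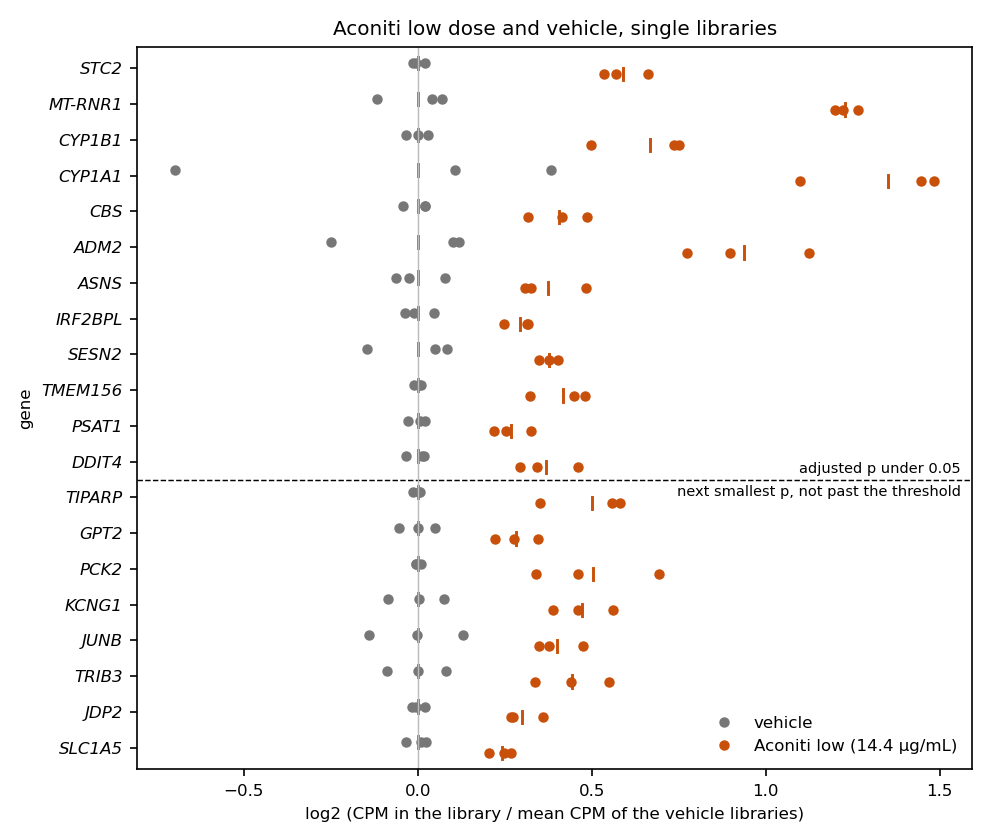
Each row is a gene and each point a library, plotted as the log2 ratio of its CPM to the mean CPM of the 3 vehicle libraries, in grey for vehicle and orange for Aconiti low, with a short bar at each group mean. Above the dashed line are the 12 genes past the threshold and below it the 8 with the next smallest p among genes of at least 5 CPM without overlap. In every row the 3 orange points lie to the right of the 3 grey ones.

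The 8 genes next in line, taken by smallest p among those of at least 5 CPM whose groups did not overlap, were TIPARP, GPT2, PCK2, KCNG1, JUNB, TRIB3, JDP2 and SLC1A5. None passed the threshold, and their adjusted p ran from 0.0594 for TIPARP to 0.227 for SLC1A5. GPT2, the mitochondrial alanine transaminase, was at 23.5, 22.7 and 24.4 CPM in vehicle and at 28.5, 27.4 and 29.9 CPM in Aconiti low (log2 fold 0.28 ± 0.06, adjusted p = 0.0759). PCK2, the mitochondrial phosphoenolpyruvate carboxykinase, was at 35.9, 35.8 and 36.2 CPM and at 45.5, 49.5 and 58.1 CPM (0.50 ± 0.12, adjusted p = 0.102). The vehicle values of PCK2 were nearly equal, whereas the Aconiti values spread widely. In the same order of libraries the length balance was 3.52, 3.44 and 3.36 in vehicle and 3.47, 3.35 and 3.05 in Aconiti low. Whether the level of PCK2 follows this balance was not tested. JUNB and JDP2, which encode members of the AP-1 family of transcription factors, had log2 folds of 0.40 ± 0.10 (adjusted p = 0.121) and 0.30 ± 0.07 (adjusted p = 0.134). JUNB was at 61.7 CPM in vehicle and 81.5 CPM in Aconiti low, but also at 80.8 CPM in Bupleuri low. The glutamine transporter SLC1A5 was at 505.7 CPM in vehicle and 597.6 CPM in Aconiti low (0.24 ± 0.06). KCNG1, a modifier subunit of voltage-gated potassium channels, was at 7.11 and 9.86 CPM (0.47 ± 0.11, adjusted p = 0.102).

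The xenobiotic enzymes CYP1B1 and CYP1A1 rose as well. CYP1B1 (chr2:38066973-38109902, minus strand) was at 55.0, 52.7 and 53.9 CPM in vehicle and at 89.9, 90.8 and 76.1 CPM in Aconiti low. Its log2 fold was 0.67 ± 0.10 (adjusted p = 0.00045). CYP1A1 (chr15:74719542-74725610, minus strand) was at 0.914, 1.11 and 0.524 CPM in vehicle and at 1.82, 2.37 and 2.31 CPM in Aconiti low, a log2 fold of 1.31 ± 0.21 (adjusted p = 0.00054). The groups were separate in both genes, and both stayed past the threshold with each of the 6 libraries left out in turn. On the 6 libraries alone the adjusted p was 0.075 for CYP1B1 and 0.528 for CYP1A1, which has few reads in a library at its level near 1 CPM.

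Of the 9 genes on the aryl hydrocarbon receptor list 8 were tested, 2 rose and none fell, where 0.0695% of all genes rose. The fold was above 0 in 7, against 53% of all genes, and the median log2 fold was 0.27, against 0.01 over all genes. At an unadjusted p under 0.05 4 were higher and 1 lower (2.98% and 1.28% of all genes), and the libraries did not overlap in 4 higher genes and 1 lower one (7.99% and 6.15% of all genes). On only the 6 libraries none of the 8 rose, and with the length balance as covariate 3 did. TIPARP, a mono-ADP-ribosyltransferase that feeds back on the receptor, was at 33.6, 33.1 and 33.5 CPM in vehicle and at 50.0, 49.2 and 42.6 CPM in Aconiti low (log2 fold 0.50 ± 0.11, adjusted p = 0.0594). The libraries of TIPARP did not overlap, which the rule that picked it required. The messenger of the receptor, AHR, was the 1 member with a fold below 0, at 50.2, 49.7 and 49.6 CPM in vehicle and 46.4, 43.9 and 36.5 CPM in Aconiti low (−0.24 ± 0.12, adjusted p = 0.915). AHRR, the receptor's repressor, had 2.78 and 3.33 CPM (0.26 ± 0.18, adjusted p = 0.915) and NQO1, a quinone reductase also under NRF2, had 1603 and 1755 CPM (0.13 ± 0.11, adjusted p = 0.915), both with overlapping libraries.

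MT-RNR1, the 12S ribosomal RNA of the mitochondrial small subunit (chrM:648-1601, plus strand), also rose. It stood at 1615, 1448 and 1649 CPM in vehicle and at 3660, 3606 and 3775 CPM in Aconiti low. No vehicle library came near the Aconiti libraries, and the spread inside the extract group was small. The log2 fold was 1.23 ± 0.18 (adjusted p = 0.000156), or 2.34-fold. In the 48 libraries of the shared fit outside Aconiti, MT-RNR1 ran from 1328 to 3140 CPM with a median of 1568 CPM, so all of them lay below the lowest Aconiti low library. Other called genes reached or passed their lowest Aconiti low library in some of these 48, which include higher doses of other extracts. That was so in 6 libraries for STC2 (up to 89.1 CPM in Yijung medium 2), in 17 for CYP1B1, 12 for CYP1A1, 11 for CBS, 14 for IRF2BPL and TMEM156, 4 for ADM2, and 6 each for ASNS, SESN2, PSAT1 and DDIT4. The other ribosomal RNA of the same precursor, MT-RNR2 (16S, chrM:1671-3229), was at 22570, 20560 and 22030 CPM in vehicle and at 24240, 22910 and 21010 CPM in Aconiti low. These values overlap, and the log2 fold was 0.07 ± 0.08 (adjusted p = 0.915). The libraries were prepared for messenger RNA, so levels of ribosomal RNA depend on what the preparation retained.

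None of the 13 mitochondrially encoded subunits passed in either direction, where 0.0695% of all genes did. Their log2 folds were above 0 in 8, against 53% of all genes, and below 0 in 5, with a median of 0.05. At an unadjusted p under 0.05 2 were higher and none was lower, against 2.98% and 1.28% of all genes. MT-ND2 was at 3836, 3357 and 4019 CPM in vehicle and at 7337, 5539 and 4568 CPM in Aconiti low (log2 fold 0.64 ± 0.20, adjusted p = 0.673). MT-ND1 was at 4057, 3516 and 4612 CPM and at 6356, 5293 and 4642 CPM (0.42 ± 0.19, adjusted p = 0.915). In both the first Aconiti library was highest and the third came close to vehicle. MT-CO3, a subunit of cytochrome oxidase, was at 9571, 8954 and 9449 CPM in vehicle and at 8147, 7842 and 7551 CPM in Aconiti low (−0.25 ± 0.13, adjusted p = 0.915). The Aconiti low libraries of MT-CO3 lay below all vehicle libraries, as in 6.15% of all genes. The lowest of these libraries was under the whole range of the 48 libraries outside Aconiti (7633 to 13390 CPM).

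The share of all counts in mitochondrially encoded genes was 8.297% ± 0.342 in vehicle and 8.679% ± 0.887 in Aconiti low (SD, n = 3). The difference of 0.382 percentage points did not exceed the spread (exact two-sided permutation test p = 0.5, where 3 against 3 cannot go below 0.1), and without Aconiti low replicate 1 it was −0.037. The genes for proteins of mitochondrial transcription and RNA processing had 0 of 34 called and 21 above 0, against 0.0695% and 53% of all genes. Their median log2 fold was 0.03. MTERF1, a mitochondrial transcription termination factor, was at 15.5, 14.8 and 15.1 CPM in vehicle and at 13.6, 13.7 and 13.7 CPM in Aconiti low (−0.15 ± 0.07, adjusted p = 0.915). Its Aconiti libraries were all lower. The chaperones and proteases of mitochondrial protein stress had 0 of 13 called and a median of 0.06.

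**Figure D3:**
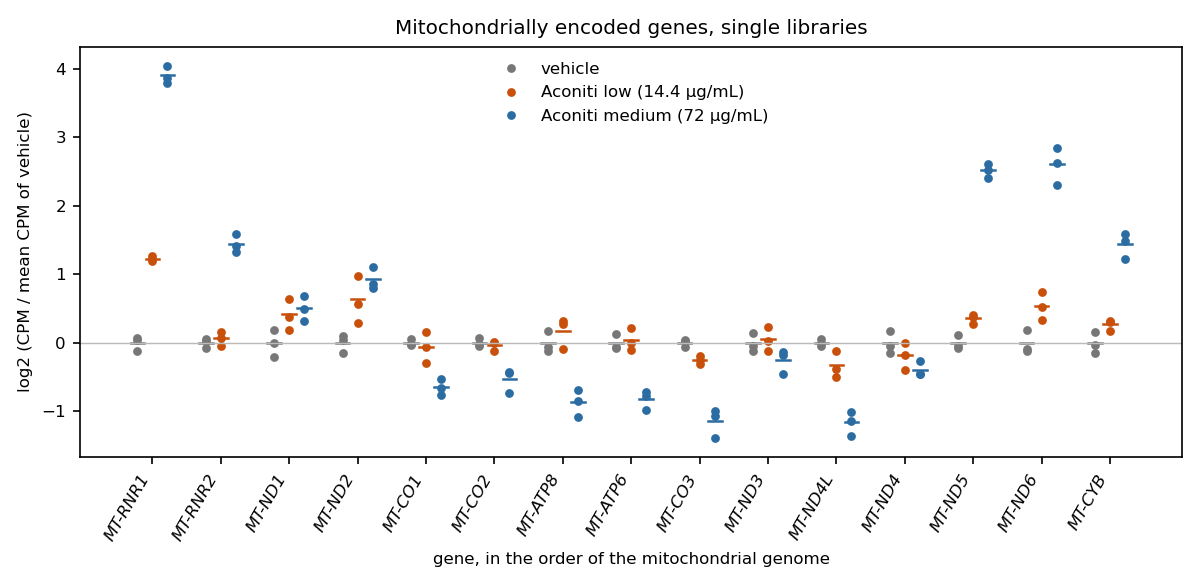
Each point is a library, as the log2 ratio of its CPM to the mean of the vehicle libraries, for the 2 ribosomal RNAs and 13 subunits in the order of the mitochondrial genome, with a short bar at each group mean. At the low dose (orange) MT-RNR1 stands alone at 1.2 on this scale, while at the medium dose (blue) MT-RNR2, MT-ND5, MT-ND6 and MT-CYB are also high and MT-CO3 and MT-ATP8 are low.

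For the other lists the background is 0.0695% of genes called and 53% with a fold above 0. At such a share of calls most lists of this size would hold none, so the absence of a called member tells little. The cytosolic ribosomal proteins had 0 of 86 called, 84 folds above 0 and a median log2 fold of 0.15, the nuclear subunits of the respiratory chain 0 of 82, 77 above 0 and a median of 0.16, and the mitochondrial ribosomal proteins 0 of 77, 72 above 0 and a median of 0.08. Of the last group 1 gene was higher at an unadjusted p under 0.05, and of the other 2 groups none was, against 2.98% of all genes. Against Bupleuri low instead of vehicle, 34 of 86, 24 of 82 and 24 of 77 folds were above 0, in the same order of lists. The medians there were −0.01, −0.03 and −0.03, so the lean upward was not seen against that extract. A measure of the libraries moved with these lists. Members of the lists with short transcripts enter this measure, so it is not independent of them. The balance of long (over 6000 bp) against short (under 1500 bp) transcripts in mean log2 CPM was 3.52, 3.44 and 3.36 in vehicle and 3.47, 3.35 and 3.05 in Aconiti low. Aconiti low replicate 3 was lowest, and its ribosomal protein genes held 6.9% of counts against 5.36% to 5.81% in vehicle. The part of this balance in the lists was not tested. With the balance as a covariate 28 genes differed from vehicle, 27 higher and 1 lower, the 12 among them.

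Targets of NRF2, the oxidative stress factor that is constantly active in A549, had 0 of 26 called, 22 folds above 0 and a median log2 fold of 0.09. Against Bupleuri low 15 of these 26 folds were above 0, with a median of 0.01. FTH1, the ferritin heavy chain, was at 3329 CPM in vehicle and 4109 CPM in Aconiti low (0.30 ± 0.12, adjusted p = 0.915), and HMOX1, heme oxygenase 1, at 166 and 173 CPM (0.06 ± 0.09, adjusted p = 0.921). Cholesterol synthesis and uptake had 0 of 24 called and 14 folds below 0. At an unadjusted p under 0.05 4 of its genes were lower, against 1.28% of all genes. INSIG1, which restrains the pathway, was at 36.3 and 32.8 CPM (−0.14 ± 0.05, adjusted p = 0.915). The genes of mitosis and G2/M had 0 of 28 called, 23 folds below 0 and a median of −0.08. HMMR, a spindle protein of this list, was at 68.8, 70.8 and 69.4 CPM in vehicle and at 64.7, 63.6 and 62.2 CPM in Aconiti low (−0.13 ± 0.06, adjusted p = 0.915). Here the groups were separate but the difference was small.

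Genes linked to the known pharmacology of aconite alkaloids were covered in part. Of 13 voltage-gated sodium channel genes 5 passed the low-count filter, with 0 called and log2 folds from −0.65 to −0.03. SCN9A, a channel known from pain sensing, was at 42.3 and 40.6 CPM (−0.06 ± 0.18, adjusted p = 0.961), and SCN8A at 11.4 and 9.5 CPM (−0.26 ± 0.26, adjusted p = 0.915). With the length balance as a covariate the SCN9A fold was 0.10 ± 0.06. Of the pumps and exchangers for sodium, potassium and calcium 13 of 16 genes were tested and 0 called, and of adrenergic receptors and adenylyl cyclases 10 of 16 were tested and 0 called. Among the heat shock genes 0 of 14 were called, with a median of 0.00. HSPA1A, the inducible HSP70, was at 338, 360 and 382 CPM in vehicle and at 347, 349 and 377 CPM in Aconiti low, with full overlap (−0.01 ± 0.10, adjusted p = 0.99). The folding genes of the endoplasmic reticulum had 0 of 20 called and a median of 0.03.

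From the low to the medium Aconiti dose 91 genes (0.527% of those tested) differed, of which 74 were higher (0.429%) and 17 lower (0.0984%). The low-dose libraries enter this comparison and the one with vehicle, so a chance excess in them would lower the further rise, and values are given side by side. STC2 went from 28.5 CPM in vehicle to 42.9 CPM at the low dose, 90.2 CPM at the medium and 148.7 CPM at the high dose. Its log2 fold from low to medium was 1.07 ± 0.08 (adjusted p = 3.65e-13). ASNS ran through 123, 160, 252 and 330 CPM in the same order (low to medium 0.65 ± 0.07, adjusted p = 1.58e-08), and CBS through 24.7, 32.8, 51.0 and 85.7 CPM (0.64 ± 0.07, adjusted p = 9.32e-09). Each of these steps exceeded the replicate spread.

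SESN2 rose from 16.6 CPM at the low dose to 28.0 at the medium and 54.0 CPM at the high dose (low to medium 0.75 ± 0.07, adjusted p = 1.02e-09). ADM2 rose from 2.77 to 5.01 and 11.9 CPM (0.86 ± 0.15, adjusted p = 0.000418), DDIT4 from 226 to 336 and 520.5 CPM (0.57 ± 0.08, adjusted p = 7.07e-06), PSAT1 from 420 to 609 and 687 CPM (0.53 ± 0.05, adjusted p = 3.62e-09) and IRF2BPL from 40.3 to 47.2 and 68.4 CPM (0.23 ± 0.06, adjusted p = 0.0361). The call of IRF2BPL from low to medium was lost in 10 of 15 alternatives, among them each of the 6 fits without 1 library and the fit without a low-count filter (adjusted p = 1). TMEM156 was at 13.5 CPM at the low dose and 15.2 CPM at the medium, which did not pass (0.17 ± 0.08, adjusted p = 0.945), and at 26.3 CPM at the high dose (high against low 0.96 ± 0.08, adjusted p = 6.55e-13). On the stress list 16 of 25 genes rose from low to medium and none fell, against 0.429% and 0.0984% of all genes. The median log2 fold of the list was 0.48, where the median of all genes was near 0.

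The genes of the aryl hydrocarbon receptor list are given over the same doses, and a difference between their course and that of the stress genes was not tested. CYP1B1 was at 53.9 CPM in vehicle, 85.6 CPM at the low, 90.7 CPM at the medium and 105 CPM at the high dose. Its step from low to medium was 0.08 ± 0.10 on the log2 scale (adjusted p = 1), with an interval of 2 standard errors from −0.12 to 0.29. CYP1A1 was at 0.848, 2.17, 2.12 and 2.47 CPM in the same order, and its step from low to medium was −0.04 ± 0.18 (adjusted p = 1, interval −0.41 to 0.33). TIPARP was at 33.4, 47.2, 47.8 and 66.8 CPM (low to medium 0.02 ± 0.11, adjusted p = 1). On this list 0 of 8 genes were called from low to medium in either direction, against 0.527% of all genes, and the median was 0.01. At such a share a list of 8 genes would rarely hold a call. From low to high CYP1B1 differed by 0.30 ± 0.10 (adjusted p = 0.0284), TIPARP by 0.50 ± 0.11 (adjusted p = 0.000495) and CYP1A1 by 0.20 ± 0.18 (adjusted p = 0.483), and over the 8 genes this step ran from −0.91 to 0.50, with 2 risen and 1 fallen (11.4% and 11.3% of all genes). The intervals leave room for a further rise of CYP1B1 at the medium dose of up to 0.29 on the log2 scale.

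**Figure D4:**
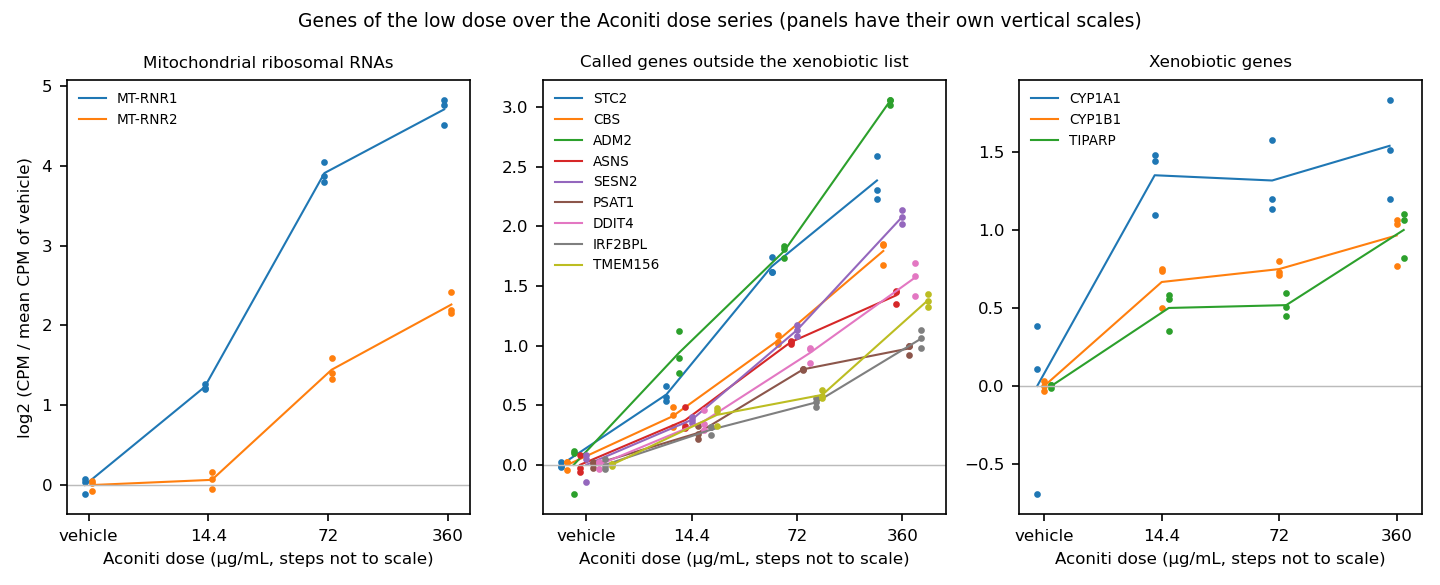
The log2 ratio of CPM to the vehicle mean is plotted against the Aconiti dose (vehicle, 14.4, 72 and 360 µg/mL) for the mitochondrial ribosomal RNAs, for the other called genes outside the receptor list, and for CYP1A1, CYP1B1 and TIPARP, with points for libraries and lines through group means. MT-RNR2 leaves the vehicle level at 72 µg/mL, whereas MT-RNR1 is already up at 14.4 µg/mL, and CYP1A1 and CYP1B1 are about level between 14.4 and 72 µg/mL.

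The mitochondrial transcripts differed most between the low and the medium dose. MT-RNR1 went from 3680 CPM at the low dose to 23560 CPM at the medium and 40960 CPM at the high dose (low to medium 2.68 ± 0.19, adjusted p = 5.07e-14). MT-RNR2, which overlapped vehicle at the low dose, went from 22720 to 59100 and 104100 CPM (1.38 ± 0.08, adjusted p = 7.45e-16). MT-ND5 had 3531, 3466 and 3229 CPM at the low dose and 15290, 16280 and 14090 CPM at the medium dose (2.16 ± 0.21, adjusted p = 1.63e-09). MT-ND5 and MT-ND6 code for subunits of complex I, and MT-ND6 rose likewise (2.07 ± 0.29, adjusted p = 7.91e-06), as did MT-CYB of complex III (1.17 ± 0.17, adjusted p = 8.73e-06). At the low dose these 3 genes lay above all vehicle libraries, as did 7.99% of all genes. None of the 3 passed the test, with log2 folds of 0.36 ± 0.20, 0.54 ± 0.28 and 0.27 ± 0.16 over vehicle (adjusted p = 0.915 each). Of the 48 libraries outside Aconiti, 2 reached or passed the lowest Aconiti low library for MT-ND5, 10 for MT-ND6 and 17 for MT-CYB. The falls from low to medium were led by MT-ATP8 (−1.04 ± 0.26, adjusted p = 0.04), MT-CO3 (−0.89 ± 0.13, adjusted p = 8.73e-06) and MT-ATP6 (−0.86 ± 0.15, adjusted p = 0.000365), and MT-CO1 (−0.59 ± 0.09, adjusted p = 1.45e-05) and MT-CO2 (−0.50 ± 0.12, adjusted p = 0.04) fell too. Calls among these falls depended on the libraries. MT-ATP8 passed in 9 of 14 alternatives (adjusted p up to 0.342), and was lost without Aconiti low 2, Aconiti low 3 or any 1 of the medium libraries. MT-CO2 passed in 7 (adjusted p up to 0.501), and was lost without any 1 of the 6 libraries and on only the 6. MT-CO1 passed in 13 and was lost on only the 6 libraries (adjusted p = 0.198). These genes encode subunits of the ATP synthase and cytochrome oxidase. The mitochondrial share of counts was 14.05% ± 0.984 at the medium and 17.47% ± 1.31 at the high dose (SD, n = 3).

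Outside the mitochondrial genome, CHAC1 rose from 9.79 CPM at the low dose to 19.6 CPM at the medium (1.00 ± 0.14, adjusted p = 5.85e-06) and FAM129A, a stress gene also known as NIBAN1, from 10.9 to 23.1 CPM (1.08 ± 0.19, adjusted p = 0.000634). FAM129A was at 9.96 CPM in vehicle, and its low-dose libraries overlapped those of vehicle (0.13 ± 0.20, adjusted p = 0.923). HSPA1A, level at the low dose, fell from 357 to 256 CPM at the medium dose (−0.48 ± 0.10, adjusted p = 0.00443) and to 123 CPM at the high dose (−1.54 ± 0.10 from low, adjusted p = 3.14e-16). From low to high 3922 genes (22.7%) differed, 1971 higher (11.4%) and 1951 lower (11.3%). CXCL8, the neutrophil chemokine, was among the largest of these rises, with 1.03 CPM in vehicle, 1.12 CPM at the low and 7.12 CPM at the high dose (high against low 2.65 ± 0.20, adjusted p = 6.49e-14).

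The low doses of 5 other extracts gave a further reference. Those were 20 µg/mL rather than 14.4 µg/mL, so doses differ, and all 5 comparisons share the Aconiti low libraries. Bupleuri Radix was the planned comparison, since its sample numbers open with the same prefix as those of Aconiti. Against it 9 genes were called, all higher in Aconiti (0.0521%), and none was lower in the shared fit, while 187 (1.08%) were higher and 196 (1.14%) lower at an unadjusted p under 0.05 and DESeq2 called 7 higher and 2 lower. Other edgeR fits called 3 genes lower with the length balance as covariate, 1 without Citri medium replicate 1 and 1 without Aconiti low replicate 1. The 9 were STC2, CYP1B1, MT-RNR1, CYP1A1, PSAT1, ASNS, TIPARP, CEBPG and MTHFD2. STC2 was at 27.6, 24.4 and 25.5 CPM in Bupleuri low (Aconiti over Bupleuri 0.73 ± 0.08, adjusted p = 4.01e-07), and MT-RNR1 at 1473, 1639 and 1909 CPM (1.14 ± 0.18, adjusted p = 0.000556). Both lay close to vehicle and apart from Aconiti low. TIPARP, which missed the threshold against vehicle, was at 36.0, 28.4 and 31.4 CPM in Bupleuri low (0.56 ± 0.11, adjusted p = 0.0167). MTHFD2, an enzyme of mitochondrial folate metabolism, was at 292, 279.7 and 320.3 CPM in Bupleuri low and at 353, 339.5 and 376 CPM in Aconiti low (0.26 ± 0.05, adjusted p = 0.0466). CEBPG, a partner of ATF4 on DNA, was at 118, 109.5 and 112 CPM and at 128, 138 and 132 CPM (0.23 ± 0.05, adjusted p = 0.0428). The libraries did not overlap in these 3 genes, which was a condition for giving their values here. MTHFD2 and CEBPG each passed in 6 of 15 alternatives.

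The comparisons with Citri, Cimicifugae, Yijung and Banhasasim were chosen once the data were known. Genes called higher in Aconiti made up 0.0984%, 0.0637%, 0.0753% and 0.0521% of all genes in these 4, in the same order. STC2 and MT-RNR1 were called higher in Aconiti low in all 5, with log2 folds of 0.50 to 0.78 and of 1.14 to 1.25. CYP1B1 was called in 4 (folds 0.41 to 0.73, adjusted p up to 0.209), CYP1A1 in 4 (0.78 to 1.13, up to 0.185), CBS in 4 (0.31 to 0.45, up to 0.0589) and ASNS in 4 (0.31 to 0.50, up to 0.0745). PSAT1 and TMEM156 were called in 3, and ADM2 and SESN2 in 2. IRF2BPL and DDIT4 were called in none. The folds of IRF2BPL were 0.08 to 0.19, and the other low-dose libraries reached 40.6 CPM, so its level at the low dose overlapped that of other extracts. DDIT4 lay above all 15 other low-dose libraries (164 to 213 CPM), with folds of 0.26 to 0.37 and adjusted p from 0.0582 up.

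**Figure D5:**
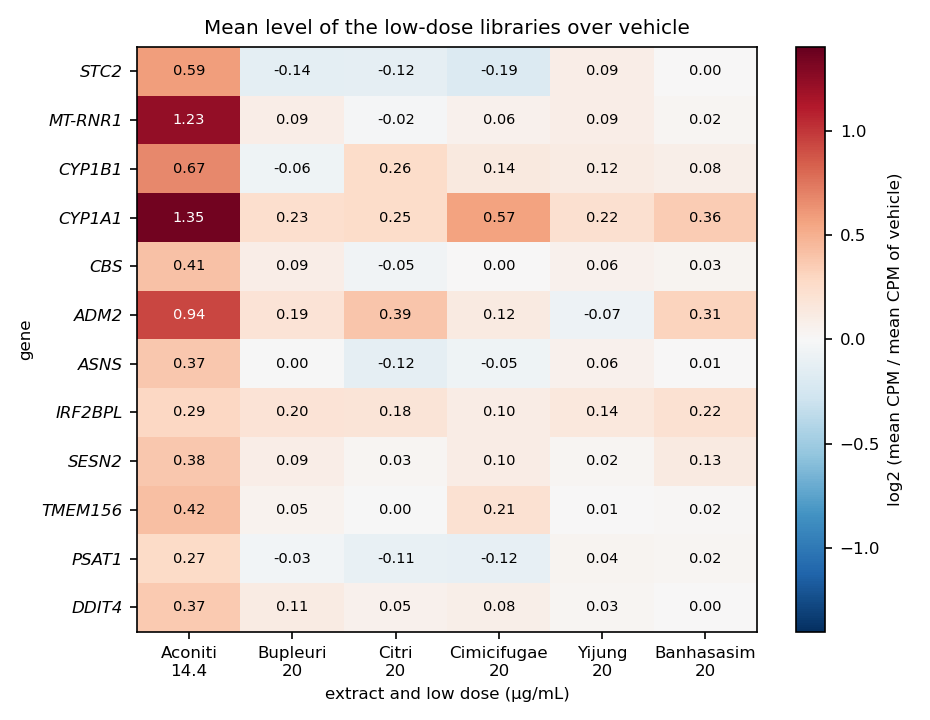
Rows are the 12 called genes and columns the 6 extracts at their low dose, 14.4 µg/mL for Aconiti and 20 µg/mL for the others. Colour and number give the log2 ratio of the group's mean CPM to that of vehicle, so the Aconiti column is high for all genes by the way they were chosen, while STC2, MT-RNR1 and ASNS stay near 0 in the other columns.

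Depth and cell identity were similar in the groups. The 6 libraries held 18894726 to 27938631 counts and 22325 to 23657 detected genes, and no replicate pair agreed within sampling noise (chi-square per degree of freedom of at least 2.82 in the groups compared). All 10 markers of A549, among them KRT8, KRT18, ALDH1A1 and AKR1B10, were detected in all 6 libraries, and their summed level was 20100 to 20900 CPM in vehicle and 19900 to 22900 CPM in Aconiti low. These 4 were the highest of the list, and EPCAM was the lowest, at 3.87 to 5.75 CPM. Of 16 markers of leukocytes, endothelium, fibroblasts, liver, muscle and neurons 4 (PTPRC, CD3E, DCN and MYH7) were at 0 in all 6 and 11 were under 1 CPM. The summed level of the 16 was 45.7 to 47.5 CPM in vehicle and 48.3 to 51.3 CPM in Aconiti low, most of it from COL1A1. CD14, COL3A1, SYP (3.38 to 4.6 CPM) and RBFOX3 (5.74 to 7.46 CPM) also lay above 1 CPM, the last 2 at levels like that of EPCAM. In a bulk library fewer cells of a type and less RNA per cell cannot be told apart.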

How the data were processed

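RNA of A549 cells was sequenced as 100 bp paired-end reads from RNA with an integrity number above 7, per the labels' protocols. The submitters' processing notes name the build GRCh38, RSEM 1.3.3 and STAR 2.7.3a, besides Trim Galore 0.6.5 and FastQC 0.11.9. The annotation release and strand setting are not given in the sources used here, so overlapping and antisense genes are uncertain. The deposited values are expected counts per gene from RSEM, made by the authors and not normalized (9.37% of the values used were not whole). Of 269 sample columns 60 matched samples of this series and 209 were not used. Coordinates come from GENCODE 29, in which 57055 of 60675 identifiers were found.

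Expected counts were rounded and fitted with edgeR 4.0.16 (quasi-likelihood, TMM scaling, filterByExpr by group) in 57 libraries of 19 groups of 3. The mixture Bojungikgi, with 1 library per dose, was left out. The fit had 38 residual degrees of freedom and a biological coefficient of variation of 10.1%. The Benjamini-Hochberg adjustment ran over 17268 genes, with a threshold of 0.05. The standard error is the log2 fold over the square root of F. Depth was 18894726 to 27938631 counts in the 6 libraries compared, so folds near 1 CPM are uncertain. Named genes were all those past the threshold and the next smallest p up to 20 genes of at least 5 CPM without overlap. The 2 smallest p of each of 38 lists and a panel of 12 were added. From the other comparisons came the 8 largest rises and falls (5 for high against low) past the threshold, of at least 5 CPM and without overlap. The text gives those on which a result turns. Further list members it names (such as PHGDH, SLC7A11 and AHR) were chosen after their values were seen. Members and lists were chosen with earlier results of these data known. Alternatives were RLE scaling, DESeq2 1.42.0, no filter, only the 6 libraries, a robust fit, a replicate block, the length balance as covariate, mitochondrial genes removed, Citri medium replicate 1 removed, and each library left out. Tested on data simulated for this comparison (17200 genes), the fit recovered 86 of 100 genes changed 1.5-fold and 99 of 100 changed 2-fold with 11 false calls. The changed genes were drawn from those with a mean above 5 CPM, and noise was drawn for each gene independently, with the spread estimated in the shared fit. Recovery of smaller folds, such as those of CBS, ASNS, IRF2BPL, SESN2, TMEM156, PSAT1 and DDIT4, was not tested. Nor was recovery near 1 CPM, where CYP1A1 and ADM2 lie in vehicle.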

Additional observations from a re-analysis of the deposited data

How the results depend on the processing

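The 12 genes called for Aconiti low against vehicle became 6 without a low-count filter, 28 with the length balance as covariate, 2 with only the 6 libraries (STC2 and MT-RNR1) and 25 with DESeq2, 7 of the 12 among them. Leaving out 1 library gave 5 (without vehicle 1 or Aconiti low 3) to 9 calls. For low to medium the 91 calls became 56 without a filter, 258 with the covariate, 41 on 6 libraries and 57 (without medium 2) to 73 with 1 library left out, and 58 without low 2. For low to high the 3922 became 6117 with the covariate, 1501 on 6 libraries, 1922 with DESeq2 and 2942 to 4420 with 1 library left out. Against Bupleuri low the 9 became 22 with the covariate, 2 on 6 libraries and 4 to 8 with 1 left out (4 without Aconiti low 3, 5 without Aconiti low 2, Bupleuri low 1 or 2). The 6-library fits have fewer degrees of freedom, and the other causes were not tested. The replicate numbers share no stated batch, and same-numbered libraries correlated at 0.112, 0.0296 and 0.194. Aconiti low 2 correlated at 0.112 with vehicle 1, above its own number. With the replicate block the calls were 12, 93, 3899 and 8, and the mitochondrial share had an exact permutation p = 0.5 within pairs, which cannot go below 0.25.

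The difference in mitochondrial share was −0.037 to 0.846 with 1 library left out (−0.037 without Aconiti low 1), and 0.131 with ribosomal RNA left out. Signs turned in genes not past the threshold. Against vehicle these were ADCY9 (0.00077), HMOX1 (−0.0088) and SCN9A (0.099) with the covariate, and, with 1 library left out, SCN9A (−0.146 to 0.0859, above 0 without vehicle 1 or Aconiti low 3), CXCL8 (−0.0195 without Aconiti low 1 to 0.277) and HSPA5 (−0.0192 without Aconiti low 3 to 0.0566). The CYP1A1 step from low to medium ran from −0.176 to 0.0397 and was above 0 without low 2 or 3 or medium 1 or 2. Of 3470 single-gene values under an alternative 3160 kept direction and side of the threshold, 252 lost the call, 47 gained it and 11 turned sign. Called genes held in 15 of 15 alternatives for STC2, 14 of 14 for MT-RNR1, 14 of 15 for CYP1B1, 13 for CYP1A1 and CBS, 11 for ADM2, 10 for ASNS, 8 for IRF2BPL and PSAT1, 7 for SESN2 and TMEM156, and 5 for DDIT4. Depth limits CYP1A1 and ADM2, which lie near 1 CPM in vehicle.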

Other observations

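Several genes outside the comparisons above had all 3 Aconiti low libraries above all 3 vehicle libraries without passing the test. KLF2, an immediate-early transcription factor, was at 4.99, 5.72 and 5.97 CPM in vehicle and at 7.69, 8.75 and 8.35 CPM in Aconiti low (log2 fold 0.58 ± 0.17, adjusted p = 0.562). RELB, a subunit of NF-kB, was at 14.9, 13.9 and 14.0 CPM and at 17.7, 17.7 and 20.2 CPM (0.37 ± 0.11, adjusted p = 0.504). VEGFA, the vascular growth factor, was at 39.3, 40.3 and 37.0 CPM and at 45.7, 47.4 and 43.4 CPM (0.23 ± 0.06, adjusted p = 0.466), and GREM1, an antagonist of BMP ligands, was at 4.76, 4.10 and 5.13 CPM and at 6.26, 5.84 and 6.49 CPM (0.42 ± 0.13, adjusted p = 0.625). Such separation occurred as a rise in 7.99% of all genes tested and as a fall in 6.15%. The lists that hold these genes had 0 called members each, with medians of 0.05 (immediate-early factors, 21 genes tested), 0.09 (NF-kB and inflammatory, 21), 0.04 (glycolysis and hypoxia, 26) and 0.11 (ID genes and BMP control, 15).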
